A study of Oryza sativa with 12 samples.

Results

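The probe sets described here rose under alkali salts in shoots of both rice genotypes studied, Jijing88 and K83. They were chosen from the array values themselves. A probe set is a group of probes on the array that are read together as 1 signal. In each genotype its mean signal under alkali had to be at least 1 log2 unit (a fold of 2) above that in control medium. All 3 alkali arrays of a genotype had to lie above all 3 of its control arrays. Of 57258 probe sets, 705 met the size in Jijing88, 438 in K83 and 289 in both, and 239 (0.417% of all) also had no overlap of arrays. Probe sets of 10 genes (ICL, MS, GLT2, EM, RAB21, OsPM19L1, JAZ5, OsC3H54, IRT1 and BHLH063) were set aside by name, which removed 9 of them and left 230 members. Of these, 187 were assigned to 172 genes, 27 of which have a name beyond a locus number, and 43 had no single gene in the annotation.

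The study measured shoot transcripts on 12 Affymetrix rice arrays in 4 groups of 3 biological replicates. Hydroponic seedlings had days of 16 h at 27 °C and nights of 8 h at 23 °C, and at 7 days of age they were moved to fresh medium, either alone (control) or with alkali salts at 50 mM (alkali). Shoots were taken after 24 h and each array read total RNA from a pool of 10 shoots. The groups were thus Jijing88 in control medium, Jijing88 under alkali, K83 in control medium and K83 under alkali. The labels give no salt composition, no pH and no neutral salt group, so alkalinity, salinity and osmotic stress cannot be told apart. They name no mutation or transgene in either genotype, and they do not say what same-numbered arrays of different groups share.

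Alkaline salts raise the pH around the roots as well as the salt level. In rice, a grass that takes up iron both as ferrous ions and as chelates, high pH lowers the solubility of iron, and shoots of stressed plants are known to alter transport, hormone, redox and cell wall genes. The genes of iron uptake act mainly in roots, although several are also transcribed in shoots. The array reads bulk tissue, so that fewer cells of a type and less RNA per cell cannot be told apart.

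The labelled tissue was checked against leaf genes. All 7 measured shoot and leaf markers lay above the array medians (5.12 to 5.18) in all 4 groups, with a summed log2 signal of 16.04 to 16.29. Of 2 root markers 1 lay above the medians (summed 8.87 to 9.78), as did 4 or 5 of 9 seed markers (summed 10.93 to 11.55) and 5 of 7 meristem markers (summed 11.68 to 12.71). None of these markers is a member. By limma with an adjusted p under 0.05, 3 of the 7 meristem markers fell in each genotype. In Jijing88, 2 of the 9 seed markers and 2 of the 7 shoot and leaf markers rose. No other marker was called in either genotype. Of all genes, 8.22% rose and 7.35% fell in Jijing88, and 5.04% rose and 7.82% fell in K83. Replicates 1, 2 and 3 of Jijing88 under alkali read 25S ribosomal RNA at 9.68, 7.87 and 9.44, and the other 9 arrays at 7.84 to 8.53. The median member signal on those 3 alkali arrays was 9.26, 9.18 and 9.05, so that the array with the low ribosomal signal lay between the others. The part of this RNA in the results was not tested.

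Control arrays of the same group differed in the level of the members. In Jijing88 control replicates 1, 2 and 3, 38.7%, 14.8% and 77.8% of members lay above their group mean, beside 50.9%, 50.6% and 49.0% of all probe sets. In K83 control replicates the shares were 30.9%, 33.0% and 80.9%, beside 50.0%, 51.6% and 47.6%. Replicate 3 of both control groups thus held most members at a raised level, with a median deviation of 0.31 in Jijing88 and 0.21 in K83. Under alkali the shares ran from 39.6% to 64.8% and the median deviations from -0.07 to 0.05. The rule favours probe sets whose arrays vary little. Of the 289 probe sets that met both sizes, 239 had no overlap of arrays in either genotype. Without both control arrays of replicate 3, an alternative added after seeing these values, 407 probe sets met the rule, 225 of the 230 members among them. The part of the raised control arrays in the responses was not tested further.

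**Figure D1:**
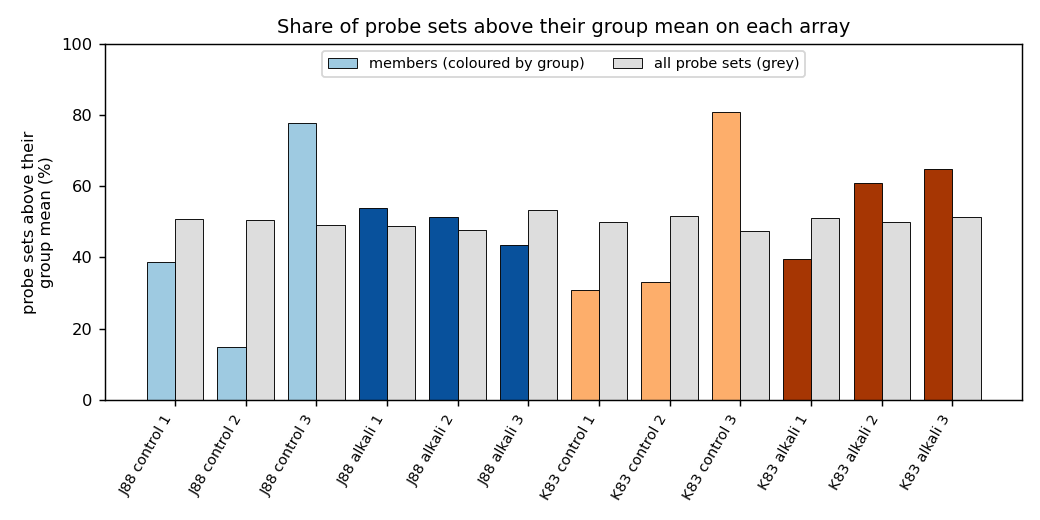
Share of the 230 members (coloured bars) and of all probe sets (grey bars) whose signal lies above the mean of their group on each array, in percent. The shares of all probe sets stay near 50%, while those of the members reach 77.8% and 80.9% in replicate 3 of the Jijing88 and K83 control groups and 14.8% in Jijing88 control replicate 2.

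The responses of most members were moderate and of similar size in both genotypes. Since the responses chose the members, their sizes are given as a description with no test. In Jijing88 they ran from 1 to 4.55 log2 units with a median of 1.64 (3.11-fold), and the middle 50% of members spanned 1.32 to 2.04. In K83 they ran from 1.01 to 6.51 with a median of 1.41 (2.66-fold), and the middle 50% spanned 1.21 to 1.77. The median of all probe sets was -0.015 in Jijing88 and -0.006 in K83. At least 2 log2 units were reached by 61 members in Jijing88 and 45 in K83, and at least 4 by 2 members in Jijing88 and 9 in K83. By limma with an adjusted p under 0.05, 224 members were called higher under alkali in Jijing88 (4.29% of all probe sets were) and 207 in K83 (2.61%). Lower calls made up 4.07% and 3.85% of all probe sets. The rule used these contrasts, and nothing is read from the counts.

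The responses of the genotypes differed by under 1 log2 unit for most members, with a tail toward K83. The rule asked for at least 1 log2 unit in both genotypes. Probe sets with a response in only 1 genotype were thus left out beforehand. The difference on the log2 scale was under 0.5 for 131 members and under 1 for 195. The response was larger in Jijing88 for 141 members and larger in K83 for 89, and the median member had a fold 1.09 times as large in Jijing88. A difference of at least 1 was seen for 18 members toward K83 and 17 toward Jijing88, but all 10 members that differed by at least 2 were larger in K83. By the limma fit over all probe sets, the difference in response was called for 14 members (11 larger in K83, 3 larger in Jijing88), beside 0.629% of all probe sets (0.267% larger in K83, 0.362% larger in Jijing88). Both responses chose the members, so that nothing is read from that count or from the likeness of the responses.

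**Figure D2:**
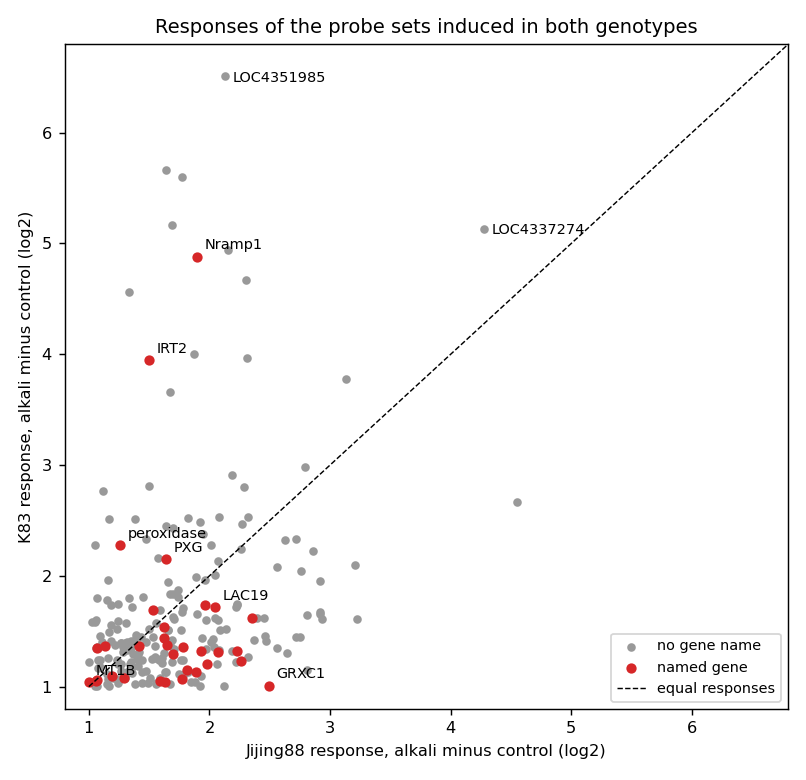
Each point is 1 of the 230 probe sets, with the response (mean alkali minus mean control signal, log2, n = 3 arrays each) of Jijing88 on the horizontal axis and of K83 on the vertical axis. Most points lie near the dashed line of equal responses between 1 and 3, and the 10 members whose K83 response is larger by at least 2, Nramp1 and IRT2 among them, stand above it.

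Members were already moderately abundant in control medium. The median member had a control signal of 7.45 in Jijing88 and 6.75 in K83, beside medians of all probe sets of 5.17 and 5.13. In control medium 37.8% of members in Jijing88 and 25.2% in K83 lay above the upper quartile of all probe sets. The K83 share was thus close to that of all probe sets. Under alkali these shares were 73.0% and 57.4%. A control mean below the array medians, where signals are close to background and a rise is to be read as a lower bound, was found for 23 members in both genotypes, for 27 in K83 only and for 4 in Jijing88 only. Averaged over the genotypes, the highest control signals belonged to LOC4351693 (11.45 in Jijing88, 11.55 in K83), LOC4351088 (11.57 and 11.20) and RBBI3.3 (11.22 and 11.03), a Bowman-Birk trypsin inhibitor gene. The lowest were 1 of the BGLU16 probe sets (3.91 and 4.36), a probe set with no assigned gene (4.45 and 3.83) and LOC4325751 (4.46 and 4.05).

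Averaged over both media, the genotypes differed in the level of many of these transcripts. The contrast is the K83 level minus the Jijing88 level, averaged over control and alkali. With equal group sizes it is orthogonal to both alkali responses, so that the rule did not use its size. A call also depends on the spread within groups, and the rule favours a small spread. The shares called are thus not wholly free of the rule. By limma, with Benjamini-Hochberg adjustment over 57258 probe sets and an adjusted p under 0.05 as a call, 121 of the 230 members (52.6%) were lower in K83, beside 9.31% of all probe sets, and 10 (4.35%) were higher, beside 9.93%. The median difference was -0.55 log2 units over the members and 0.01 over all probe sets, and 186 members lay below 0. A deficit of at least 1 was seen for 64 members (27.8%), beside 1.21% of all probe sets. Read per gene, 89 of the 172 genes were lower and 8 higher. The share of all genes was not computed for this contrast, so that nothing is read from the counts per gene. Among probe sets above the array medians, which are called more often, 125 of 223 members (56.1%) were lower, beside 18.0% of all. A difference in transcript level and a difference in how the probes bind the alleles of a genotype cannot be told apart on this array.

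The averaged difference is made of a difference in each medium, given here as a description. In control medium the median member differed by -0.49 and under alkali by -0.62, with 178 and 187 members below 0. By limma 98 members were called lower in K83 in control medium (5.44% of all probe sets were) and 98 under alkali (7.25%), and 10 and 8 higher (6.18% and 7.05%). These contrasts share arrays with the responses, and nothing is read from those counts. For 187 members the K83 level under alkali stayed below that of Jijing88 under alkali. For 19 members it also lay below the Jijing88 level in control medium, and for 2 the Jijing88 alkali level lay below the K83 control level. The lowest average difference was that of LOC4335518 at -3.39 (adjusted p = 2.26e-10 by limma), a locus chosen after its values were seen, with 9.51 and 11.30 in Jijing88 control and alkali arrays and 6.46 and 7.57 in K83. The highest, 1.66 (adjusted p = 1.38e-06 by limma), was that of a probe set with no assigned gene, chosen in the same way.

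**Figure D3:**
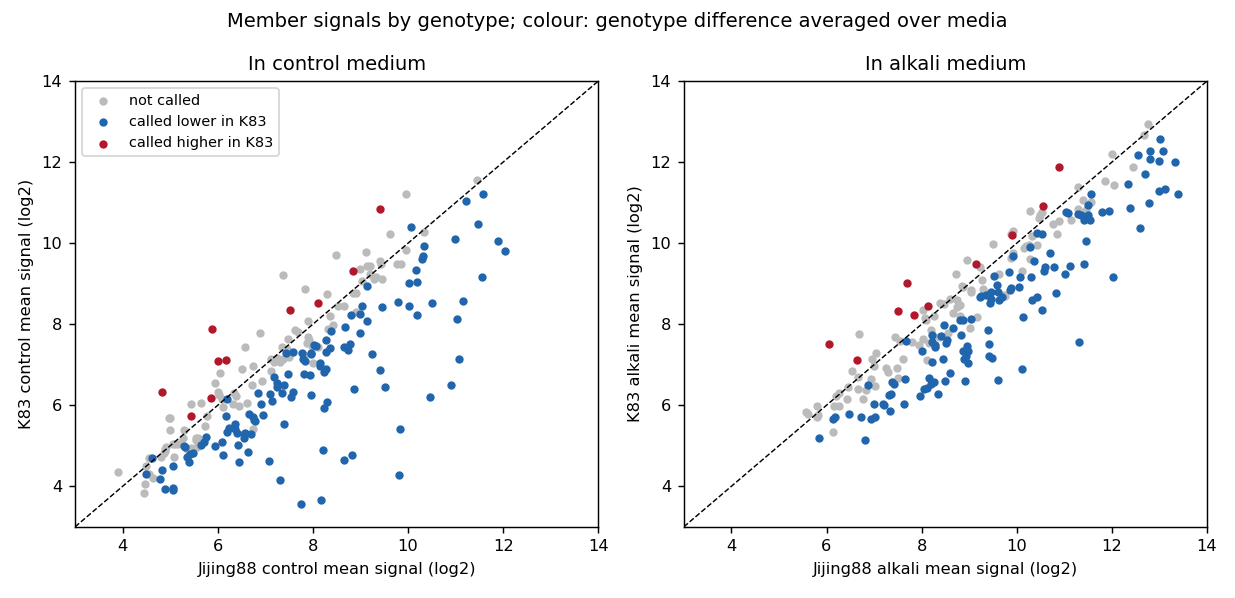
Mean signals (log2, n = 3 arrays) of the 230 probe sets in K83 against Jijing88, in control medium on the left and under alkali on the right, coloured by the call for the genotype difference averaged over media. The 121 members called lower in K83 lie below the dashed line of equal signals in most cases and the 10 called higher lie above it.

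Metal genes gave the 3 lowest averaged K83 levels relative to Jijing88 among the named members. Nramp1 (LOC4342862), a metal transporter that carries iron in rice, was at 10.92, 10.25 and 12.06 on the Jijing88 control arrays and 13.19, 12.76 and 12.99 under alkali. In K83 it was at 7.17, 7.16 and 7.13 in control medium and 12.16, 11.90 and 12.03 under alkali. K83 thus started far below Jijing88. The gap was smaller under alkali, where every K83 array still lay below every Jijing88 array. The rise was 3.73-fold in Jijing88 and 29.4-fold in K83, and the average level was 5.41-fold lower in K83 (-2.44 ± 0.22, SE; adjusted p = 3.64e-06 by limma).

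IRT2 (LOC4333667), a ferrous iron transporter of the ZIP family, was at 6.89, 6.89 and 8.15 on the Jijing88 control arrays and 9.19, 8.82 and 8.42 under alkali. In K83 it went from 4.05, 4.47 and 3.92 to 8.28, 8.26 and 7.75. The K83 control signals were below the array medians, so that its rise there, 15.4-fold against 2.82-fold in Jijing88, is a lower bound. For the same reason the average level was at least 3.83-fold lower in K83 (adjusted p = 2.23e-05 by limma).

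MT1B (LOC4332487), a metallothionein that binds metals through cysteines, entered the set at its edge, with rises of 1 in Jijing88 and 1.04 in K83. It was at 10.69, 10.84 and 11.53 in Jijing88 control, 12.42, 11.65 and 12 in Jijing88 alkali, 7.48, 8.03 and 8.84 in K83 control, and 9.18, 9.17 and 9.11 in K83 alkali arrays. Every K83 array lay below every Jijing88 array, and the average level was 7.38-fold lower in K83 (-2.88 ± 0.21, SE; adjusted p = 5.13e-07 by limma), the largest difference among the named genes. Of 57 iron and metal genes matched by name, these 3 are members and 1 more, IRT1, met the rule and was set aside. In the fit over all probe sets 14 of the 57 rose and 3 fell in Jijing88, and 10 rose and 4 fell in K83. Of the 17905 genes read from their brightest probe set, 8.22% rose and 7.35% fell in Jijing88, and 5.04% rose and 7.82% fell in K83.

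The 10 members with a K83 response larger by at least 2 shared the pattern of Nramp1 and IRT2. The other 8 have no gene name. Their K83 control level was 2.59 to 5.52 below that of Jijing88 in every case, and under alkali the gap was 0.19 to 1.71. The median of the 10 was 9.82 in Jijing88 control, 11.66 in Jijing88 alkali, 5.09 in K83 control and 10.68 in K83 alkali arrays. These 10 were chosen by that difference, which is a description. Within the Jijing88 control group their median deviations from the group mean were -0.19, -0.81 and 0.99 in replicates 1, 2 and 3. The choice by a larger K83 response favours members with a raised Jijing88 control array. In K83 control arrays the median deviations were -0.08, -0.03 and 0.16, at a median signal of 5.09 that is close to background. The spreads of the 2 control groups are thus not compared. The locus with the largest K83 response, LOC4351985, went from 4.13, 3.97 and 4.76 to 11.06, 10.55 and 10.78 in K83, at least 90.9-fold from a control signal below the array medians. In Jijing88 it went from 9.48, 8.96 and 10.98 to 12.28, 11.54 and 12, or 4.38-fold.

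LOC4337274 had the largest mean response of all members and rose strongly in both genotypes. It went from 6.52, 6.58 and 7.18 to 11.43, 10.81 and 10.89 in Jijing88 (19.5-fold). In K83 it went from 5.54, 5.54 and 5.82 to 11.04, 10.54 and 10.71 (35.0-fold). Its average level was lower in K83 by 0.71 (adjusted p = 0.00253 by limma). The annotation used here names no product for either locus.

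Among signalling genes, CIPK10 (LOC4332786), a protein kinase that acts with calcineurin B-like calcium sensors, was read by 4 member probe sets, the most of any gene. On the brightest it was at 9.12, 8.65 and 8.40 in Jijing88 control and 10.31, 10.57 and 10.41 in alkali arrays, and at 7.50, 7.14 and 7.48 in K83 control and 8.67, 8.68 and 8.63 in alkali arrays. The K83 alkali arrays thus fell within the range of the Jijing88 control arrays. Rises over the 4 probe sets were 3.25- to 4.19-fold in Jijing88 and 2.19- to 2.48-fold in K83, and the average level was 2.37- to 2.97-fold lower in K83 (adjusted p from 3.61e-07 to 8.57e-06 by limma). It was the member among 71 protein kinase genes matched by name, of which 11 rose and 8 fell in Jijing88 and 4 rose and 6 fell in K83, beside the same shares of all genes (8.22% and 7.35%, 5.04% and 7.82%).

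Other signalling members had smaller contrasts. OsITPK3, an inositol phosphate kinase, rose 3.50-fold in Jijing88 and 2.23-fold in K83, with no call between genotypes (-0.29, adjusted p = 0.203 by limma). OsRSH3, a homologue of bacterial enzymes that make the alarmone ppGpp, rose 3.90- and 3.33-fold. Its average difference of -0.55 was not called (adjusted p = 0.0972 by limma), and with the replicate number as a block it was (adjusted p = 0.0454). CML4, a calmodulin-like calcium sensor, rose 2.08- and 2.07-fold and was lower in K83 by 0.56 (adjusted p = 0.00438 by limma). HIRL1 rose 3.13- and 2.60-fold and was lower in K83 by 0.78 (adjusted p = 0.000346 by limma).

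Transcription factor genes among the members included 2 of the MYB family. JAMYB (LOC4351131), a MYB factor first described as inducible by jasmonate, was at 7.29, 7.12 and 7.31 in Jijing88 control and 8.40, 9.38 and 8.79 in alkali arrays, and at 6.59, 6.44 and 6.66 in K83 control and 7.71, 8.47 and 8.12 in alkali arrays. The rise was 3.07-fold in Jijing88 and 2.90-fold in K83, and the average level was 1.64-fold lower in K83 (adjusted p = 0.00405 by limma). MYBAS1, another MYB factor, rose 3.43- and 2.57-fold and was lower in K83 by 0.35 (adjusted p = 0.0371 by limma), a call lost without any 1 of 8 of the 12 arrays (adjusted p from 0.054 to 0.0864).

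OsC3H37, a CCCH zinc finger gene, rose 4.70- and 2.49-fold, and EIL1, an EIN3-like factor of ethylene signalling, 2.28- and 2.15-fold. Neither was called between genotypes (-0.15 and 0.09, adjusted p = 0.755 and 0.835 by limma). Of 163 transcription factor genes matched by family name, 23 rose and 1 fell in Jijing88, and 16 rose and 9 fell in K83, beside the shares of all genes given above for the metal list (8.22% and 7.35% in Jijing88, 5.04% and 7.82% in K83). Besides these 3 of the list, LOC4348646 is a member, with rises of 2.19-fold in Jijing88 and 2.58-fold in K83. Its annotated synonyms mix several families (ARD1 and HSF6 among them), so that no role is given to it. A further probe set of this gene, with a mean signal of 6.39, was not called in either genotype. It had 0.03 in Jijing88 (adjusted p = 0.947 by limma) and -0.13 in K83 (adjusted p = 0.737).

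Hormone genes among the members came from the jasmonate, ethylene and auxin lists. CM-LOX1, a lipoxygenase of the oxylipin pathway also named LOX2.1, rose from 5.33, 4.16 and 4.91 to 7.02, 6.06 and 6.18 in Jijing88 (3.07-fold) and from 4.27, 5.15 and 4.75 to 5.41, 6.75 and 6.33 in K83 (2.71-fold). Its control means were below the array medians in both genotypes, so that both rises are lower bounds. IAA2, an Aux/IAA repressor, rose 2.10- and 2.09-fold, and SAUR39, a small auxin-up RNA gene, 2.45- and 2.11-fold. Control replicate 3 of SAUR39 was 10.99 in Jijing88 beside 9.36 and 9.22, close to the alkali arrays at 11.12 to 11.18, and K83 control replicate 1 was 8.31 beside 9.96 and 10.19. Without that last array the K83 rise was 0.49 in place of 1.08.

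The abscisic acid list, the hormone list with the most genes matched by name (71), held no member. Of these genes 11 rose and 2 fell in Jijing88 and 6 rose and 3 fell in K83, beside 8.22% and 7.35% of all genes in Jijing88 and 5.04% and 7.82% in K83. The same shares stand beside the other lists, and with 172 member genes among all genes on the array nothing is read from a list without a member. Of 39 jasmonate genes 7 rose and 1 fell in Jijing88, and 6 rose in K83. Of 66 auxin genes 4 rose and 9 fell, and 5 rose and 4 fell. Of 9 LEA and dehydrin genes 3 rose in Jijing88 and 6 rose and 1 fell in K83, and the 3 that met the rule (EM, RAB21 and OsPM19L1) were set aside by name.

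Redox and defence members differed in their genotype pattern. GRXC1 (LOC4325734), a glutaredoxin gene, was at 8.30, 8.22 and 5.63 in Jijing88 control and 10.27, 9.42 and 9.93 in alkali arrays, and at 8.98, 9.13 and 9.55 in K83 control and 10.15, 10.26 and 10.27 in alkali arrays. Jijing88 control replicate 3 stood far below the other control arrays, and without it the Jijing88 rise was 1.62 in place of 2.49 log2 units, beside 1.01 in K83. The average level was higher in K83 by 1.09, short of a call (adjusted p = 0.0536 by limma), and without that array it was higher by 0.66 and called (adjusted p = 0.00601).

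The gene annotated only as peroxidase (LOC4344277) rose 2.40-fold in Jijing88, from 6.19, 6.44 and 6.60 to 7.67, 7.95 and 7.41, and 4.85-fold in K83, from 5.36, 5.01 and 5.56 to 7.64, 7.49 and 7.64. The genotypes were apart in control medium and overlapped under alkali. PXG (LOC4336376), a peroxygenase gene, was the named member called higher in K83 (0.57 ± 0.11, SE; adjusted p = 0.0026 by limma). It was at 5.77, 5.71 and 6.10 in Jijing88 control, 7.43, 7.52 and 7.54 in Jijing88 alkali, 6.11, 5.87 and 6.53 in K83 control and 8.54, 8.09 and 8.36 in K83 alkali arrays. The K83 alkali arrays lay above all others.

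GLP2 (LOC4344846), a germin-like protein gene of the extracellular space, was read by 2 member probe sets. On the brighter it went from 7.51, 7.24 and 7.44 to 9.46, 8.49 and 8.84 in Jijing88 and from 5.61, 5.52 and 5.46 to 7.29, 7.08 and 7.29 in K83. Its level was lower in K83 by 1.79 (adjusted p = 4.89e-07 by limma) and by 1.59 on the other probe set (adjusted p = 6.31e-05). LAC19, a laccase that oxidises phenolics of the cell wall, rose at least 4.15- and 3.30-fold from control means below the array medians and was lower in K83 by 1.13, a value that rests partly on those dim signals (adjusted p = 0.000463 by limma). BGLU16, a beta-glucosidase gene, rose at least 4.78-fold in Jijing88, from a control mean below the array medians, and 2.34-fold in K83 on the brighter of 2 member probe sets, with no call between genotypes (0.17, adjusted p = 0.666 by limma). RBBI3.3 rose 3.01- and 2.07-fold and was lower in K83 by 0.45 (adjusted p = 0.00197 by limma). OsCASPL1D1, of the CASP-like membrane protein family, rose 3.42- and 2.10-fold and was lower by 1.17 (adjusted p = 0.000425 by limma).

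Transport and metabolism supplied 3 further named members. AMT2-1 (LOC4339064), an ammonium transporter, was at 8.41, 8.02 and 8.38 in Jijing88 control and 9.92, 9.42 and 9.72 in alkali arrays, and at 7.42, 7.26 and 7.27 in K83 control and 8.83, 8.51 and 8.70 in alkali arrays. All 4 groups were apart from each other, the rise was 2.67-fold in Jijing88 and 2.58-fold in K83, and the average level was 1.97-fold lower in K83 (adjusted p = 9.51e-06 by limma). HXK6, a hexokinase of the sugar list, rose 3.10- and 2.06-fold and was lower in K83 by 0.79 (adjusted p = 1.64e-05 by limma). OsTIP3, a tonoplast water channel, rose at least 2.10- and 2.55-fold from control means below the array medians, with no call between genotypes (0.12, adjusted p = 0.405 by limma). Of 31 genes matched by aquaporin names 6 rose and 2 fell in Jijing88, and 8 rose in K83. Beside them, 8.22% and 7.35% of all genes rose and fell in Jijing88, and 5.04% rose in K83. The 31 include LOC4348646, whose synonyms mix several families and to which no role is given.

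Of the 27 named genes, 16 were called lower in K83 on the average over media, 1 (PXG) higher and 10 not called. Beside them, 52.6% of all members and 9.31% of all probe sets were called lower. Nothing particular to the named genes is read from this. The response was larger in Jijing88 for 19 and in K83 for 8, and for 22 the log2 difference between the responses was under 1.

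**Figure D4:**
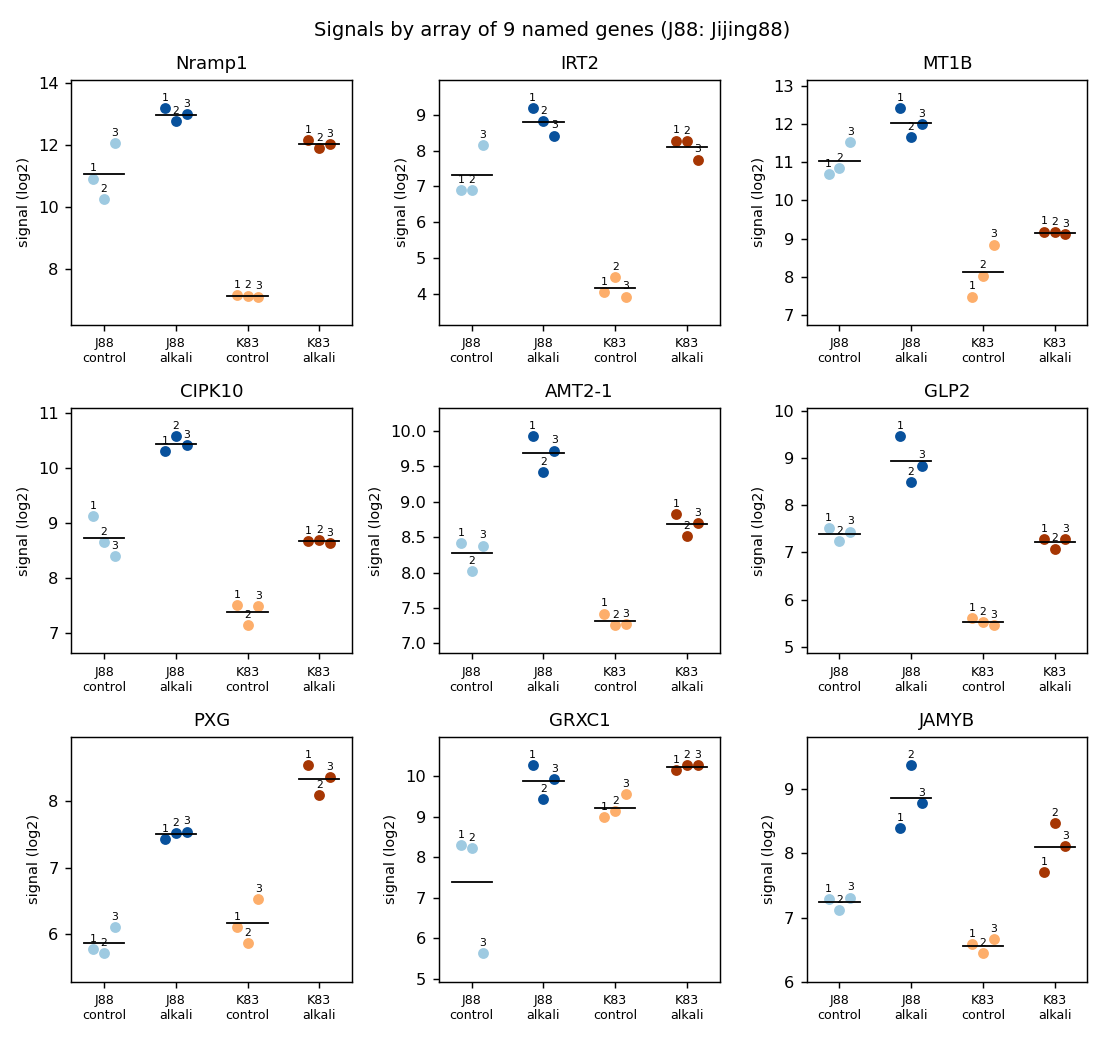
Signals (log2) of 9 named genes on each array, by group on the horizontal axis, with dots numbered by replicate and a bar at the mean of 3 arrays. Nramp1 and IRT2 start far below Jijing88 in K83 control arrays and have a smaller gap under alkali. CIPK10, GLP2, AMT2-1 and MT1B have a gap between genotypes in both media that narrows little or not at all. PXG is highest in K83 alkali arrays, and GRXC1 has 1 low Jijing88 control array.

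A gene can be read by several probe sets, of which the rule kept those past its threshold. Of the 172 genes, 12 had more than 1 member probe set, 27 probe sets in all. For 35 genes there were 47 further probe sets outside the set. Of these, 35 had a higher mean under alkali in both genotypes, 2 had a lower mean in both and 10 had opposite signs, with median responses of 0.55 in Jijing88 and 0.33 in K83. They read the same arrays as the members. Of the 47, 21 had a mean signal below the array medians. Of the 26 above the medians, 22 were higher in both genotypes. HIRL1, for example, had 3 further probe sets, all higher in both genotypes, by 0.34 to 0.60 in Jijing88 and 0.07 to 0.83 in K83. The further probe set of LOC4334201, with a bright mean signal of 9.11, had -0.66 in Jijing88 (adjusted p = 0.00239 by limma) and -0.37 in K83 (adjusted p = 0.0641), while its member probe set had 1.24 and 1.59. Both examples were chosen after their values were seen.

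Some members are neighbours in the gene table of the Japonica reference. Of the 172 genes, 14 formed 7 pairs within 20 kb of each other, 4 of them with no other gene between. On chromosome 3, LOC4332422 rose by 3.21 in Jijing88 and 2.10 in K83, and the adjacent LOC4332423 by 2.19 and 1.32. On chromosome 7, LOC4343986 rose by 2.09 and 1.51 and LOC4343987 by 2.22 and 1.72. On chromosome 1, LOC4325750 rose by 2.30 and 4.67 and LOC4325751 by 1.36 and 1.72. On chromosome 4, LOC4336804 rose by 1.11 and 1.40 and LOC9267767 by 1.27 and 1.39. The other 3 pairs paired OsTIP3 with LOC4348984, RBBI3.3 with LOC4326000 and HIRL1 with LOC4339793. Binding of a probe to transcripts of related genes was not tested. By chromosome, the shares of member genes ran from 4.07% on chromosomes 6 and 12 to 18.0% on chromosome 3. These chromosomes hold 7.82%, 5.07% and 13.7% of all genes on the array. The shares were not tested.

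The edge of the set was populated on both sides. The smaller of the 2 responses was under 1.1 for 44 members. Just inside the threshold it was 1 in Jijing88 for MT1B and for a probe set of LOC4336804 dimmer than that given above. For LOC4331496 it was 1.01, in K83. Just outside, LOC4324857 had 1 in Jijing88 and 1.31 in K83, a probe set with no assigned gene had 1.33 and 1, and LOC4333209 had 0.999 and 1.82, where the values of 1 are rounded up. A further 57 probe sets without overlap had a smaller response between 0.9 and 1.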

How the data were processed

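The authors deposited a table with a normalized log2 signal for each probe set on each array. RMA and limma appear in the submitters' processing notes without version or role, and the log base was read from the values. No further normalization was applied. Of 57381 probe sets, 123 control probe sets were left out.

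GEO's platform annotation, updated through RefSeq's Japonica rice genes, gave 1 gene for 22436 probe sets, several for 95 and none for 34727. Where several member probe sets read a gene, the brightest is given unless stated otherwise.

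Contrasts were fitted with limma 3.58.1 in R 4.3.3 on all 12 arrays as 4 group means (8 residual degrees of freedom), two-sided, with Benjamini-Hochberg adjustment over all probe sets. On simulated arrays with 57258 probe sets, 97.5% of 200 changes of 1 log2 unit in the averaged genotype contrast were recovered with 9 false calls. The simulated noise was independent between probe sets, whereas members shifted together on the real control arrays. The simulation thus does not cover shifts shared by many probe sets. Arrays give no read depth, and 3 per group limit the precision. Replicate numbers were not taken as pairs, since whether same-numbered arrays share a batch is not given. Of 18 same-numbered pairs of arrays, 7 had correlated deviations above 0.1 (range -0.076 to 0.216, highest between the control replicates 3). Pairs with different numbers were not compared, so that these correlations do not settle the choice.

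The members and the gene lists were chosen with earlier results of these data known. Named genes are the 12 members with a gene name and the largest mean response, up to 3 per list, the 4 with the largest response ratio each way, the 4 with the largest called genotype difference each way, those nearest the threshold, neighbours, the highest and lowest control signals and 2 locus numbers. The other named members are given as well. Alternatives were other scalings, thresholds and filters, variance settings, a replicate block and leaving out each array.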

Additional observations from a re-analysis of the deposited data

Results flagged for a closer look

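The responses of 2 named members differed between the genotypes by the interaction contrast of the limma fit. Nramp1 rose more in K83, by 2.98 log2 units (adjusted p = 0.0122), and IRT2 by 2.45 (adjusted p = 0.0267). Both were higher under alkali on 3 of 3 arrays in each genotype. The call of Nramp1 held under every alternative run. That of IRT2 was lost with an intensity trend and robust variances (adjusted p = 0.0586) and without Jijing88 alkali replicate 3, K83 alkali replicate 1 or 2, or K83 control replicate 1 or 3 (adjusted p from 0.0541 to 0.0696). Both responses were part of the rule, so that these values describe the members and are no independent test.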

How the results depend on the processing

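The number of probe sets that met the rule was 230, and 193 to 321 when each array was left out, with 219 under median centring, 231 under quantile normalization, 239 with group medians and 229 with treated means above the array medians. It was 76 with a threshold of 1.5 and 407 without both control arrays of replicate 3, the cause of which was not tested. The median responses stayed at 1.476 to 1.755 in Jijing88 and 1.333 to 1.565 in K83. The count of members lower in K83 was 114 to 126, and higher 7 to 14, under all alternatives, and 125 and 11 with the replicate block, whose numbers were not taken as pairs. Of 485 values of the 27 named genes' averaged genotype difference, 463 kept direction and call. Those that turned sign were uncalled in all arrays: CM-LOX1 (0.02 without K83 alkali replicate 1; range over arrays left out -0.33 to 0.02), EIL1 (-0.01 without Jijing88 control replicate 1, -0.06 without K83 control replicate 3; range -0.06 to 0.27) and OsC3H37 (0.01 without K83 control replicate 1; range -0.35 to 0.01). MYBAS1 lost its call, and GRXC1, OsRSH3 and OsITPK3 gained one, under some alternatives. Dim signals limit the rises of 54 members to lower bounds.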
